A study of Arabidopsis thaliana with 4 samples.

Results

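The genes described here are 10 Arabidopsis thaliana genes that set the time of flowering, picked by gene identifier out of the 32548 genes in the expression table. They are FLC, the 5 other members of its clade of MADS-box genes (MAF1 to MAF5), the MADS-box gene SVP, the flowering integrators FT and SOC1, and FWA. RNA abundance was compared between seedlings labelled tcx5/6;cmt3 and seedlings labelled cmt3-/-, with 2 libraries of each and no wild-type library. CMT3 encodes a DNA methyltransferase and TCX5 and TCX6 encode CXC-domain proteins of the DREAM complex, a repressor of cell cycle genes, and the study's title places the comparison in its work on DREAM and DNA methylation. All seedlings were 2 weeks old, were raised on MS plates at 22 °C in long days (16 h light, 8 h dark), and gave 1 g of tissue per sample for total RNA. Both groups carry the cmt3 mutation by label, so the labels differ in tcx5/6 alone, and the RNA is that of whole seedlings with roots, leaves and shoot tips mixed.

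FLC binds and represses FT and SOC1 and so holds back flowering until a long cold period has silenced it through Polycomb proteins. MAF1, also called FLM, and SVP repress the same targets and act in the response to growth temperature, and MAF2 to MAF5 are further FLC-like genes that lie side by side. FT is the mobile florigen made in the phloem companion cells of leaves, SOC1 is a MADS-box activator in the shoot tip, and FWA is a homeodomain gene held silent in vegetative tissue by DNA methylation at repeats near its start.

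The libraries were first set against their labels. TCX5 had 251 and 249 normalized signal units in the libraries labelled tcx5/6;cmt3, against 730 and 676 in the cmt3 libraries. TCX6 went against its label, with 919 and 1034 in the libraries labelled tcx5/6;cmt3, against 198 and 180 in the cmt3 libraries, so each direction below is that of the libraries so labelled. CMT3 itself had 1289 and 1343 in the libraries labelled tcx5/6;cmt3, against 822 and 662 in the cmt3 libraries, a change of 0.83 ± 0.12 on the log2 scale (adjusted p = 0.00985 by limma, 0.111 without the mean-variance trend). The change of TCX5 was -1.49 and that of TCX6 2.36 on the log2 scale. A transcript can still be made from a disrupted gene, and the sources used here name no alleles. The values are read abundance scaled by the authors, with column totals of 38264500 to 41106100, and the sequencing depth behind them is unknown. Of the marker genes chosen for photosynthetic tissue, root, phloem companion cells and seed or endosperm, none passed the test (0 of 5, 0 of 6, 0 of 3 and 0 of 5). Of 6 floral organ markers, SEP3, a floral MADS-box gene, passed it, with 960 and 668 in the libraries labelled tcx5/6;cmt3, against 283 and 259 in the cmt3 libraries (log2 change 1.56, adjusted p = 0.00471 by limma). Its call was lost without the mean-variance trend (0.0799) and without any 1 library on the same genes (0.0643 to 0.184, all adjusted p from limma). The summed floral organ signal was 1045 and 728 in the libraries labelled tcx5/6;cmt3, against 349 and 313 in the cmt3 libraries. Without SEP3 the sums overlapped, at 84.8 and 59.5 in the libraries labelled tcx5/6;cmt3, against 65.8 and 54.2 in the cmt3 libraries. SEP1 lay lower, with 2.46 and 1.65 in the libraries labelled tcx5/6;cmt3, against 14.4 and 6.69 in the cmt3 libraries (adjusted p = 0.202 by limma). AP3 lay higher, with 40.5 and 30.7 in the libraries labelled tcx5/6;cmt3, against 23.4 and 20.1 in the cmt3 libraries (adjusted p = 0.42 by limma). SEP2, PI and AG overlapped between the groups. AP3, PI and AG, which define petals, stamens and carpels, each had at most 40.5 units in every library. Of the 6 log2 changes, 5 were positive and 1 was negative. The part of these floral markers in the results below was not tested.

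The 6 clade members are close relatives, which matters for telling their reads apart. Their MADS domains open with nearly the same bases, shown here for the first 90 coding bases as the RefSeq annotation of TAIR10.1 gives them, 5′ to 3′ on the coding strand, with capitals at bases that differ from FLC at the same place. For MAF5 the stretch starts 21 bases into the longest annotated coding sequence, where the match to the other members begins.
FLC, chr5:3179250-3179339, minus strand: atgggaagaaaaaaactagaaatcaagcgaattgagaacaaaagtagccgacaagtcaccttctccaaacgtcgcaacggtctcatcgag
MAF1, chr1:28955679-28955768, plus strand: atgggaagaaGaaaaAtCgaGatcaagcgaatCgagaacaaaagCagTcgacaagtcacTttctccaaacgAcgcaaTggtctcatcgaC
MAF2, chr5:25982415-25982504, plus strand: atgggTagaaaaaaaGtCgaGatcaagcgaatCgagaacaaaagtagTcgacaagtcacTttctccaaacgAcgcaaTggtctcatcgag
MAF3, chr5:25987527-25987616, plus strand: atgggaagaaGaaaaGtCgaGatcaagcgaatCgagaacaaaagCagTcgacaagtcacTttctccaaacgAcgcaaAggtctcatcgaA
MAF4, chr5:25992310-25992399, plus strand: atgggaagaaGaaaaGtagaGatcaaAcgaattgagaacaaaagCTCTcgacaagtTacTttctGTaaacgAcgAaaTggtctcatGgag
MAF5, chr5:25997671-25997760, plus strand: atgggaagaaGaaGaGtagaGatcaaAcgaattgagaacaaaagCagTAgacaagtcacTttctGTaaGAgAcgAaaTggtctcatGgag
Over these 90 bases MAF2 differed from FLC at 9, MAF1 and MAF3 at 11 each, MAF4 at 16 and MAF5 at 17. Over whole coding sequences MAF2 and MAF3 were the closest pair, with 93.57% identity, MAF4 and MAF5 shared 70.86%, and FLC shared 63.17% to 76.29% with the 5 MAF genes. Exact matches between exons were few at a length of 50 bases, a length chosen here since the sources used name no read length. Of all such stretches, 12 in MAF1 (0.28%) and 12 in MAF3 (1.02%) also occurred in another clade member, and none did in FLC, MAF2, MAF4 or MAF5. Stretches across splice junctions were not compared and near matches were not counted, so these shares do not show how many reads could fit more than 1 member.

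**Figure D1:**
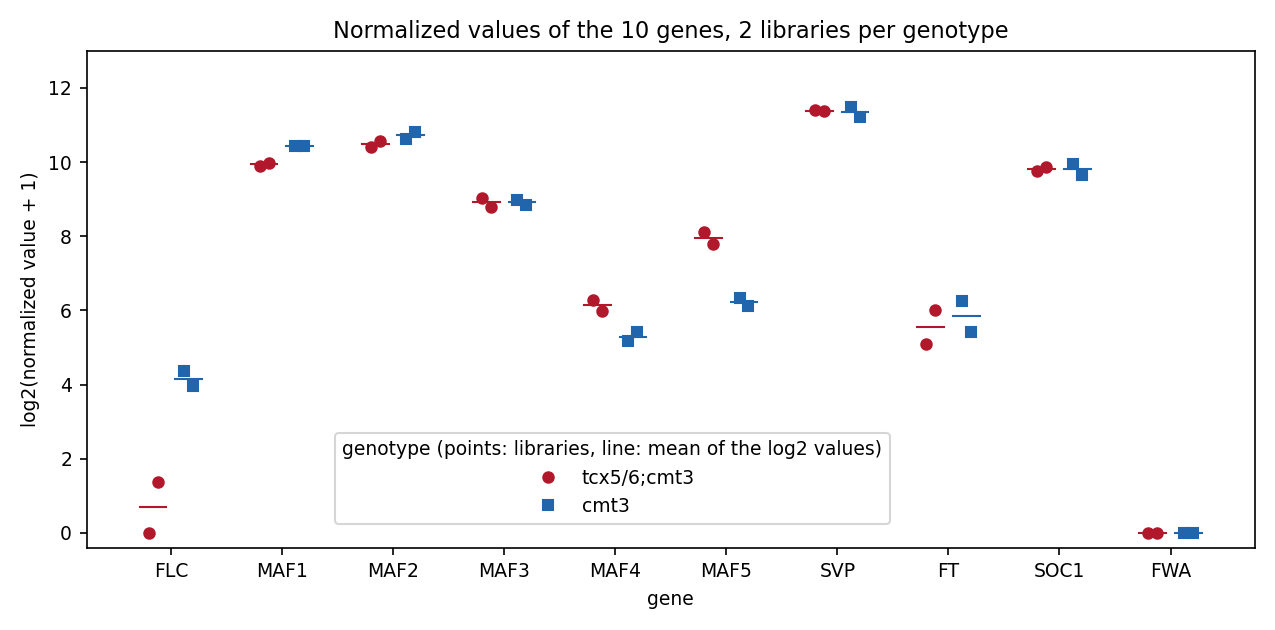
Log2(normalized signal + 1) of the 10 genes; each point is 1 library and each line a mean of the log2 values, with the libraries labelled tcx5/6;cmt3 drawn left of the cmt3 libraries. FLC sits at 0 and 1.60 units in the libraries labelled tcx5/6;cmt3 and at 19.6 and 14.5 in the cmt3 libraries, MAF5 at 278 and 222 against 80.1 and 69.0, and FWA is listed at 0 in all 4.

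Of the 10 genes, 9 had enough signal to be tested, which here means a value of 1 or more in at least 2 libraries. MAF5 was higher in the libraries labelled tcx5/6;cmt3, FLC and MAF1 were lower, the other 6 tested genes did not pass the test, and FWA was not tested. The test was limma on log2(value + 1) with Benjamini-Hochberg adjustment over 23666 genes and a threshold of 0.05, so folds are on that scale and understate the change of low genes. Of all genes tested, 8.47% were called, with 6.15% higher and 2.32% lower. In 5 of the 9 all values of one group lay on the same side of the other group, with 2 higher (MAF4 and MAF5) and 3 lower (FLC, MAF1 and MAF2). The same held for 50.1% of all genes tested, 24.4% higher and 25.7% lower, so the share among the 9 is near the background. The median log2 change of the 9 was -0.01, against -0.02 for all genes tested. Nothing in the labels says that the libraries of a group came from separate cultures, so each p-value speaks to the variation among these 4 libraries alone, which may be technical. In whole seedlings, fewer cells of a type and less RNA per cell cannot be told apart.

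**Figure D2:**
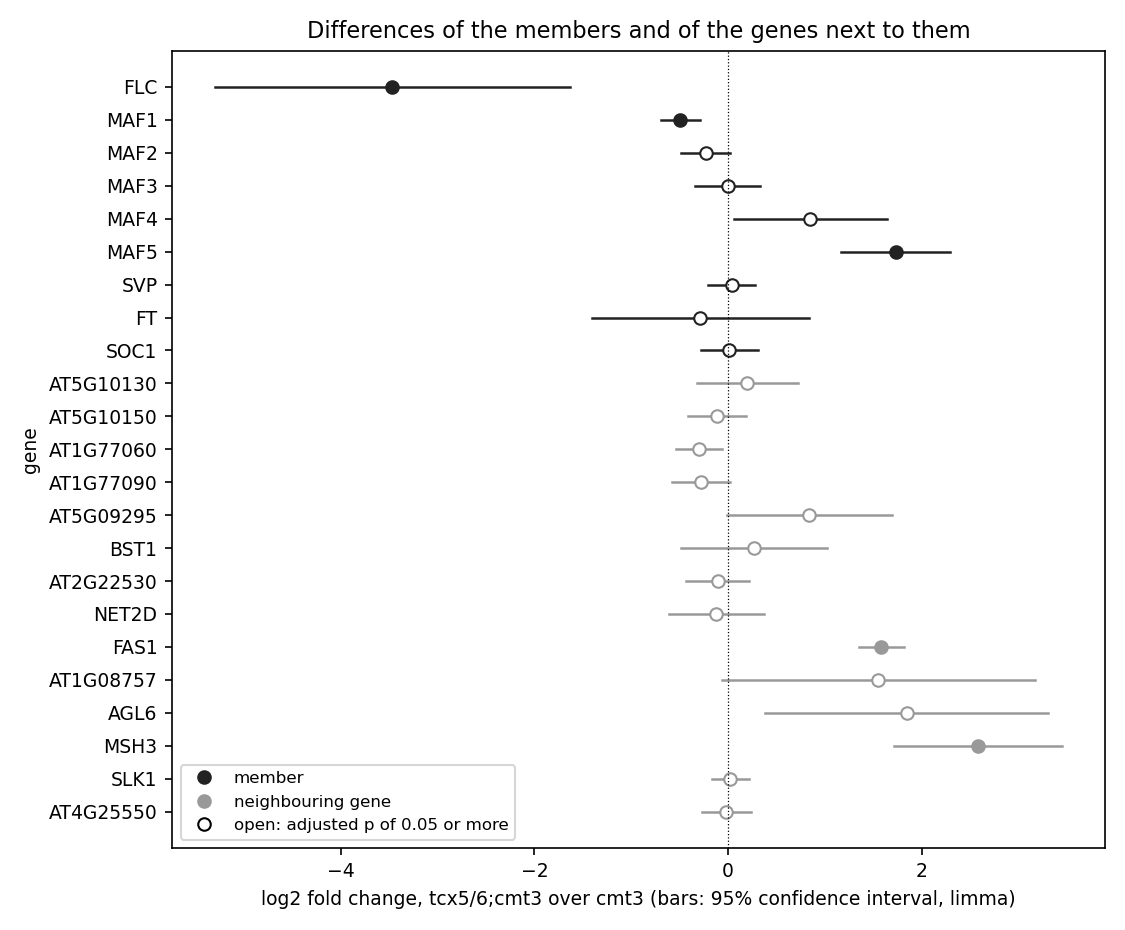
Log2 change (libraries labelled tcx5/6;cmt3 over cmt3) of the 9 tested genes, in black, and of the tested genes next to them, in grey. Points are the limma estimates, filled for called genes and open for the others, and bars are the 95% confidence intervals. FLC lies at -3.47 with the widest interval of the 9 genes, MAF1 at -0.49 and MAF5 at 1.73, and the intervals of MAF2, MAF3, SVP, FT and SOC1 span 0.

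FLC (AT5G10140, chr5:3173382-3179448, minus strand, TAIR10.1), the central repressor, was near the lower end of the scale in every library. It had 0 and 1.60 units in the libraries labelled tcx5/6;cmt3, against 19.6 and 14.5 in the cmt3 libraries. The groups did not overlap, and both libraries labelled tcx5/6;cmt3 were far below the lower cmt3 library. The log2 change was -3.47 ± 0.76 with a 95% interval of -5.30 to -1.64 (adjusted p = 0.0422 by limma). The most frequent value above 0 in a library was 1.37 and 1.04 units in the libraries labelled tcx5/6;cmt3, against 1.66 and 1.19 in the cmt3 libraries. The FLC values in the libraries labelled tcx5/6;cmt3 lie near this low end of the table, and the call was lost in several settings. With a minimum value of 5 the adjusted p from limma was 0.0642, with a pseudocount of 0.1 it was 0.12 at a log2 change of -5.36, and without the mean-variance trend it was 0.0957. Leaving out any 1 of the 4 libraries, with the genes tested kept the same, also ended the call, with adjusted p from limma of 0.108 to 0.315 and log2 changes of -4.16 to -2.78. With the low-value filter applied anew to the remaining 3 libraries, a setting chosen after the data were seen, FLC kept its call without cmt3 replicate 2 (adjusted p = 0.0362 by limma) and lost it without each of the other libraries.

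The annotation limits what can be read from the level of FLC. An antisense long noncoding RNA, AT5G01675 (chr5:3173371-3179600, plus strand), spans the whole gene, and 804 of the 1180 exonic bases of FLC (68.14%) also lie in its exons. AT5G01675 was listed at 0 in all 4 libraries. Across the table, 450 of 465 protein-coding genes with at least 95% of their exonic bases inside another gene's exons were listed at 0 in all 4 libraries (96.77%), against 2806 of 19961 genes with no shared exonic base (14.06%). The sources used here do not say whether the authors' counting used strand. In FLC 376 exonic bases are not shared, and the part of the overlap in its level was not tested. The genes on either side of FLC did not pass the test: AT5G10130 changed by 0.20 (adjusted p = 0.69 by limma) and AT5G10150 by -0.11 (adjusted p = 0.698 by limma) on the log2 scale.

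MAF1 (AT1G77080, chr1:28955483-28960234, plus strand, 11 annotated transcripts), which is spliced into temperature-dependent forms, was moderately lower. It had 954 and 1009 units in the libraries labelled tcx5/6;cmt3, against 1382 and 1380 in the cmt3 libraries, or 981 ± 38.8 against 1381 ± 1.25 (SD, n = 2 each). Both libraries labelled tcx5/6;cmt3 lay below both cmt3 libraries, by more than the spread within either group. The log2 change was -0.49 ± 0.08 with a 95% interval of -0.69 to -0.29 (adjusted p = 0.0163 by limma). Without the mean-variance trend the adjusted p from limma was 0.115, and without any 1 library it was 0.0533 to 0.345. With the filter applied anew, MAF1 kept its call without cmt3 replicate 1 (adjusted p = 0.000555 by limma) or replicate 2 (0.000618), but not without either library labelled tcx5/6;cmt3. The values are sums over all transcripts of the gene, so its splice forms were not separated. Its neighbours lay lower in the libraries labelled tcx5/6;cmt3 as well, without passing the test. AT1G77060 had 1460 and 1585 in the libraries labelled tcx5/6;cmt3, against 2013 and 1756 in the cmt3 libraries, a log2 change of -0.31 (adjusted p = 0.138 by limma). AT1G77090, which ends 77 bases from MAF1, had a log2 change of -0.28 (adjusted p = 0.281 by limma).

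MAF2 to MAF5 stand in a row on the plus strand of chromosome 5, within 20366 bases, and moved in different ways along it. MAF5 (AT5G65080, chr5:25997504-26002619), at the far end, had 278 and 222 units in the libraries labelled tcx5/6;cmt3, against 80.1 and 69.0 in the cmt3 libraries. Its means were 250.3 ± 39.5 and 74.6 ± 7.80 (SD, n = 2 each), a ratio of 3.36, and the lower library labelled tcx5/6;cmt3 was well above the higher cmt3 library. The log2 change was 1.73 ± 0.23 with a 95% interval of 1.17 to 2.29 (adjusted p = 0.00714 by limma). Without the mean-variance trend MAF5 kept its call by little (adjusted p = 0.0464 by limma), while FLC and MAF1 lost theirs. Without either cmt3 library FLC and MAF1 lost their calls too, MAF1 by little. MAF5 stayed just under the threshold there, with log2 changes of 1.83 without cmt3 replicate 1 and 1.62 without cmt3 replicate 2. It lost the call without replicate 1 labelled tcx5/6;cmt3 (adjusted p = 0.282 by limma) or without replicate 2 (adjusted p = 0.213 by limma), settings in which 0 genes of the whole table were called, with 2407 and 2490 at an unadjusted p under 0.05. With the filter applied anew the adjusted p from limma was 0.0687 without replicate 1 and 0.0265 without replicate 2.

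MAF4 (AT5G65070, chr5:25992193-25996202) is the gene before it and had 77.3 and 62.7 units in the libraries labelled tcx5/6;cmt3, against 35.3 and 41.4 in the cmt3 libraries. The groups did not overlap, but the log2 change of 0.85 ± 0.33 did not pass the test (95% interval 0.06 to 1.64 before adjustment, adjusted p = 0.208 by limma). MAF3 (AT5G65060, chr5:25987309-25991412) had 524 and 440 in the libraries labelled tcx5/6;cmt3, against 505 and 460 in the cmt3 libraries. Its groups overlapped, and the interval of its log2 change of -0.01 ran from -0.34 to 0.33 (adjusted p = 0.99 by limma). MAF2 (AT5G65050, chr5:25982254-25986435), a repressor that keeps short cold spells from being read as winter, had 1355 and 1527 in the libraries labelled tcx5/6;cmt3, against 1580 and 1804 in the cmt3 libraries. Its groups did not overlap, with a log2 change of -0.23 ± 0.10 that did not pass the test (adjusted p = 0.286 by limma). MAF2 was called without cmt3 replicate 1 once the filter was applied anew (log2 change -0.33, adjusted p = 0.0122 by limma), and in no other setting.

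Not divided by gene length, the cluster as a whole gave about the same signal in both groups, while its makeup differed. The summed signal of MAF2 to MAF5 was 2235 and 2252 in the libraries labelled tcx5/6;cmt3, against 2200.3 and 2374 in the cmt3 libraries, and these ranges overlapped. MAF5 took 12.4% and 9.88% of the sum in the libraries labelled tcx5/6;cmt3, against 3.64% and 2.91% in the cmt3 libraries. MAF2 took 60.6% and 67.8% in the libraries labelled tcx5/6;cmt3, against 71.8% and 76.0% in the cmt3 libraries. The share of MAF3 overlapped between the groups, at 23.4% and 19.5% in the libraries labelled tcx5/6;cmt3, against 22.9% and 19.4% in the cmt3 libraries. The MAF5 signal was 3.60 and 3.55 times that of MAF4 in the libraries labelled tcx5/6;cmt3, against 2.27 and 1.67 times in the cmt3 libraries, so the ratio to the gene next to it differed between the groups as well, without overlap. The shares are of signal not divided by gene length, and their groups do not overlap for MAF2, MAF4 and MAF5. Summed per kilobase of exon, the cluster gave 1032 and 971 units in the libraries labelled tcx5/6;cmt3, against 898 and 928 in the cmt3 libraries. Those per-kilobase sums did not overlap between the groups. Over the whole clade of 6 genes the undivided sum was 3189 and 3262 in the libraries labelled tcx5/6;cmt3, against 3602 and 3769 in the cmt3 libraries. These groups did not overlap, with MAF1 and MAF2 lower and MAF5 higher within the sum.

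**Figure D3:**
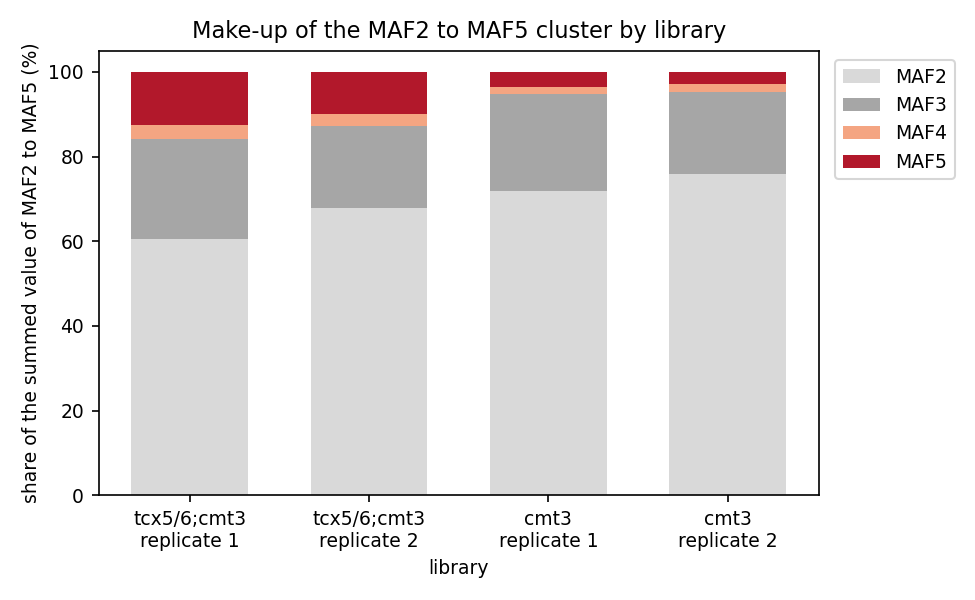
Share of the summed MAF2 to MAF5 signal taken by each gene in each library, in percent, as stacked bars with the libraries labelled tcx5/6;cmt3 left of the cmt3 libraries. The MAF5 band covers 12.4% and 9.88% in the libraries labelled tcx5/6;cmt3 and 3.64% and 2.91% in the cmt3 libraries.

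The surrounding genes did not move as a block with MAF5. Of 36 other genes of the table within 50 kb of the cluster, 32 were tested. Of these, 3 were called higher and 0 lower, against 6.15% and 2.32% of all genes tested, so the counts are near the background. The median log2 change of the 32 was -0.06, with a range of -1.16 to 2.96. BST1, which lies 1262 bases past MAF5 and shapes root hairs, had 171 and 146 units in the libraries labelled tcx5/6;cmt3, against 98.6 and 174 in the cmt3 libraries (log2 change 0.27, adjusted p = 0.715 by limma). At the other end, the long noncoding RNA AT5G09295 had 48.9 and 53.6 in the libraries labelled tcx5/6;cmt3, against 26.1 and 30.5 in the cmt3 libraries, and its change of 0.84 did not pass the test (adjusted p = 0.252 by limma). The 3 called genes, named here after their values were seen, were AT5G64910 (2.96), RABH1a, a RAB GTPase gene (2.77), and AT5G65120 (1.15, all log2 changes), and none adjoins the cluster.

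**Figure D4:**
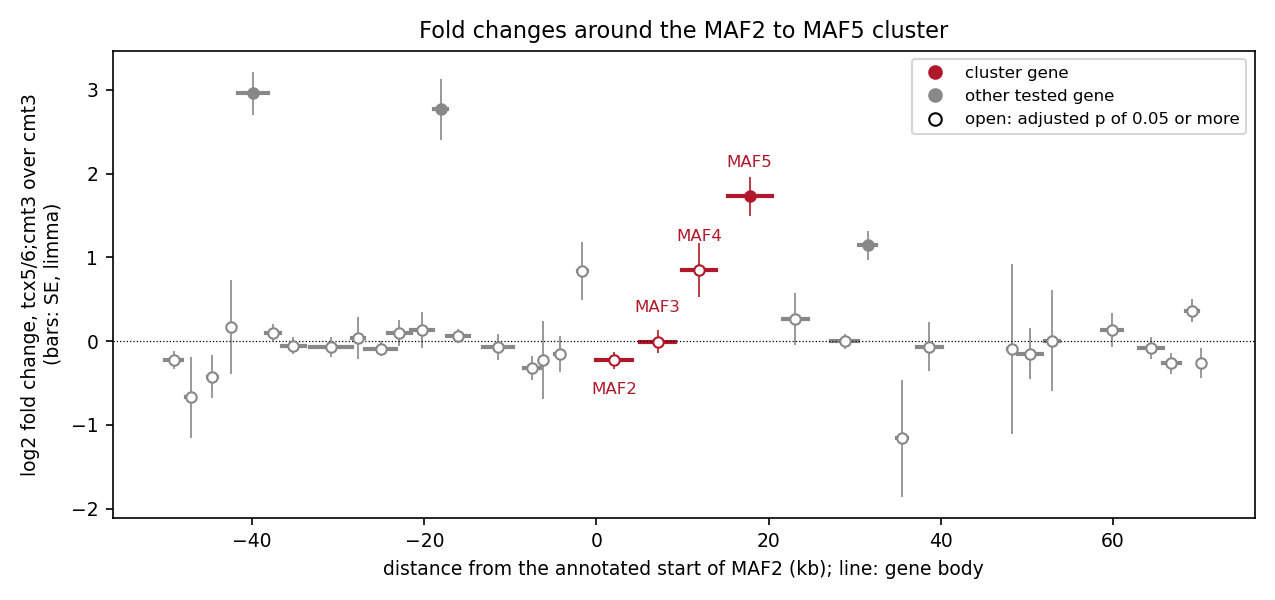
Log2 change (libraries labelled tcx5/6;cmt3 over cmt3) of each tested gene within 50 kb of the MAF2 to MAF5 cluster, by the distance of its midpoint from the start of MAF2 in kb; vertical bars are the SE from limma, horizontal lines the gene bodies, and filled points the called genes. MAF4 and MAF5 lie at 0.85 and 1.73 while MAF2 and MAF3 lie at -0.23 and -0.01, and the 32 other genes have a median of -0.06.

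The sequences just upstream of the clade members are shown because MAF4 and MAF5, the pair with the highest log2 changes, share runs of bases there that MAF1 to MAF3 do not carry. Each is the 250 bases before the annotated gene start, from RefSeq, TAIR10.1, 5′ to 3′ on the strand of the gene. In FLC the capitals mark TTTGAA, read on the other strand. In the MAF genes they mark runs of 12 or more bases that are also in the window of a named relative, which is MAF3 for MAF1 and MAF2, MAF2 for MAF3, MAF5 for MAF4 and MAF4 for MAF5. The later stretch of capitals in MAF1 joins overlapping runs and is not in the MAF3 window as a whole. The longest run shared by the windows of MAF1 and MAF3 is 20 bases.
FLC, chr5:3179449-3179698, minus strand: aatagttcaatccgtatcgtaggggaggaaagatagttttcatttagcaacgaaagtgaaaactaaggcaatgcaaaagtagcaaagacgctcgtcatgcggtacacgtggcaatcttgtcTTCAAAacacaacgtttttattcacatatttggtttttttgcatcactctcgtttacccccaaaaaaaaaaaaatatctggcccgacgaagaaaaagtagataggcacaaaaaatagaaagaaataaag
MAF1, chr1:28955233-28955482, plus strand: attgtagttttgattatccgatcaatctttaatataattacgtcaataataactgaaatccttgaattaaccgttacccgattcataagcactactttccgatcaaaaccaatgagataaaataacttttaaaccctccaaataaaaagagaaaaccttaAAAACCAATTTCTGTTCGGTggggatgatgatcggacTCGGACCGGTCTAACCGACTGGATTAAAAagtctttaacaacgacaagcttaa
MAF2, chr5:25982004-25982253, plus strand: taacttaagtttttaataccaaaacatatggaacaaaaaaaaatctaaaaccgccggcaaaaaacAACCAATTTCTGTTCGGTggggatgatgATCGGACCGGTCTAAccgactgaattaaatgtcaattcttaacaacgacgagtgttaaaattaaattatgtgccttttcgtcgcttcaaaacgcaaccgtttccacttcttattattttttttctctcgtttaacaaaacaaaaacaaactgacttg
MAF3, chr5:25987059-25987308, plus strand: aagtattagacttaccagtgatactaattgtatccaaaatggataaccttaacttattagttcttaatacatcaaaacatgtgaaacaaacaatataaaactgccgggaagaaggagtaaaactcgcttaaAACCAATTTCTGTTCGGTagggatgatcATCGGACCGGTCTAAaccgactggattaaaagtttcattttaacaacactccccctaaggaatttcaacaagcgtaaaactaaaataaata
MAF4, chr5:25991943-25992192, plus strand: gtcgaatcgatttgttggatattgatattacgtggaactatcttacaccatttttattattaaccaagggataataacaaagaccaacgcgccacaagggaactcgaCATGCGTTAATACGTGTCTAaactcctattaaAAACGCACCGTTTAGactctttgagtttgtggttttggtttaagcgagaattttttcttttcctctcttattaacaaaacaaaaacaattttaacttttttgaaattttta
MAF5, chr5:25997254-25997503, plus strand: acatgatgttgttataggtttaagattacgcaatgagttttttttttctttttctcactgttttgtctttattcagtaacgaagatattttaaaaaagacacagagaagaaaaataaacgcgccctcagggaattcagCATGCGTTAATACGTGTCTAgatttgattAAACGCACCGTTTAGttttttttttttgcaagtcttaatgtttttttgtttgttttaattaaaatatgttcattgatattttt
The windows of MAF4 and MAF5 share 35 bases in such runs, the longest being 20 bases long, and that 20-base run occurs in 2 of the 32546 gene windows of the annotation. MAF1 and MAF2 share a run of 35 bases, also in 2 of 32546 windows, and MAF2 and MAF3 share one of 18 bases. MAF2 and MAF4, with log2 changes of -0.23 and 0.85, share another run of 18 bases, in 4 of 32546 windows. That run is not in capitals above. FLC shares no run of more than 10 bases with any of the 5. The matches describe the sequences and were not tested for binding or for a role in the values above.

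The same windows of all 10 genes were searched on both strands for motifs linked to DREAM, namely the cell cycle homology element TTTGAA with its variants TTTAAA and TTCGAA and the E2F-type elements TTTCCCGC and TTTGGCGC, and for the CArG box that MADS-domain proteins bind. TTTGAA occurred in FLC at position -129, in MAF2 and in MAF4, and TTTAAA in MAF1 at -123 and in MAF5 at -162, counted from the gene start. Among all gene windows 38.7% hold TTTGAA and 32.6% hold TTTAAA, so these matches are common. The 5 genes with a match are all of the FLC clade, and SVP, FT, SOC1 and FWA had no match of any motif. TTCGAA, TTTCCCGC, TTTGGCGC and the CArG box, found in 7.46%, 0.581%, 0.316% and 2.39% of all windows, occurred in none of the 10.

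SVP (AT2G22540, chr2:9579647-9583901), the partner of FLC and MAF1 in repression, had 2705 and 2650 units in the libraries labelled tcx5/6;cmt3, against 2845 and 2396 in the cmt3 libraries. The cmt3 libraries enclosed those labelled tcx5/6;cmt3. Its log2 change of 0.04 ± 0.10 had a 95% interval of -0.21 to 0.28 (adjusted p = 0.899 by limma), and the sign turned when each library was centred on its median, so no direction is given.

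The integrators downstream of these repressors did not pass the test. FT (AT1G65480, chr1:24331373-24333999) had 33.2 and 63.2 units in the libraries labelled tcx5/6;cmt3, against 74.9 and 42.1 in the cmt3 libraries. The groups overlapped, and the spread within each was larger than the difference between the group means. The log2 change was -0.29 ± 0.46 with a 95% interval of -1.41 to 0.83 (adjusted p = 0.808 by limma). SOC1 (AT2G45660, chr2:18807505-18811125, minus strand) had 864 and 936 in the libraries labelled tcx5/6;cmt3, against 982 and 808 in the cmt3 libraries. Its groups overlapped too, and its interval of -0.28 to 0.31 around 0.01 is much narrower than that of FT (adjusted p = 0.972 by limma). The phloem companion cell markers, from the cells that make FT, summed to 10698 and 11456 units in the libraries labelled tcx5/6;cmt3, against 13740 and 11800 in the cmt3 libraries.

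FWA (AT4G25530, chr4:13038360-13042464, plus strand) was listed at 0 in all 4 libraries. Only 10 of its 2469 exonic bases (0.405%) overlap another gene, the mismatch repair gene MSH3, so shared exons cover little of it. The window before FWA holds a direct repeat of 38 bases, printed here because methylation of repeats at this gene is known to silence it, with both copies in capitals, beginning at -111 and -66.
FWA, chr4:13038110-13038359, plus strand: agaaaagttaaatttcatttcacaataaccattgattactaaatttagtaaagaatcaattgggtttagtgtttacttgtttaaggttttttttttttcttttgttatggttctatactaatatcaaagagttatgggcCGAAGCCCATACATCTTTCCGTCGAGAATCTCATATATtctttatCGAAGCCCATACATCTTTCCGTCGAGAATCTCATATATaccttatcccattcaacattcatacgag
Methylation was not measured in these libraries. MSH3, which overlaps the end of FWA by 10 bases on the opposite strand, had 406 and 400.0 units in the libraries labelled tcx5/6;cmt3, against 45.3 and 97.6 in the cmt3 libraries, a log2 change of 2.58 ± 0.36 (adjusted p = 0.00808 by limma, 0.1 without the mean-variance trend). SLK1 on the other side changed by 0.02 (adjusted p = 0.921 by limma). MSH3 was thus called higher beside a gene listed at 0 in every library.

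A called gene is also the nearest gene of the table on 1 side of FT. FAS1, a subunit of the histone chaperone CAF-1, lies 7281 bases from FT and had 1682 and 1675 units in the libraries labelled tcx5/6;cmt3, against 594 and 528 in the cmt3 libraries, a log2 change of 1.58 ± 0.10 (adjusted p = 0.000555 by limma). FT itself did not move with it. AGL6, a MADS-box gene of flower development 918 bases from SOC1, had 12.6 and 12.2 in the libraries labelled tcx5/6;cmt3, against 2.23 and 3.31 in the cmt3 libraries, and its change of 1.84 did not pass the test (adjusted p = 0.145 by limma). The genes next to SVP, AT2G22530 and NET2D, changed by -0.11 and -0.12 on the log2 scale, with adjusted p of 0.735 and 0.816 by limma.

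Compared per kilobase of merged exon, the order of the 10 mean levels was the same in both groups, namely SVP, SOC1, MAF2, MAF3, MAF1, MAF5, FT, MAF4, FLC and FWA, but some neighbours in it overlapped. SVP, the highest, had 1510 and 1480 units per kilobase in the libraries labelled tcx5/6;cmt3, against 1589 and 1338 in the cmt3 libraries. MAF1 had 213 and 225 per kilobase and MAF5 had 227 and 181 in the libraries labelled tcx5/6;cmt3, so these neighbours in the order overlapped there. In the cmt3 libraries MAF1 had 309 and 308 per kilobase and MAF5 had 65.3 and 56.3, so there they were well apart. In the cmt3 libraries MAF5 overlapped FT instead, at 76.8 and 43.1 per kilobase, and SOC1, at 632 and 520, overlapped MAF2, at 467 and 533. FT and MAF4 overlapped in the libraries labelled tcx5/6;cmt3, with 34.0 and 64.8 against 47.0 and 38.1 per kilobase, but not in the cmt3 libraries, with 76.8 and 43.1 against 21.4 and 25.1. The merged exons of MAF1 hold 4480 bases over 11 transcripts, more than any 1 transcript. Per kilobase of the transcript with the longest coding sequence, MAF1 had rank 3 in both groups, MAF2 stood above SVP in the cmt3 libraries, MAF5 had 352 and 281 units in the libraries labelled tcx5/6;cmt3, against 101 and 87.4 in the cmt3 libraries, and MAF4 stood above FT in the libraries labelled tcx5/6;cmt3.

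The regulators of these genes were followed in 9 lists of 116 genes, of which 110 were tested, 11 were higher and 1 was lower, against 6.15% and 2.32% of all genes tested. Most of those calls sat in 1 list. Of 16 genes of the DNA methylation machinery, listed because methylation silences FWA, 7 were higher and 0 lower, with a median log2 change of 0.32. Which of the 16 the silence of FWA depends on was not tested. VIM2, which binds hemimethylated DNA, changed by 3.01, the remodeler DDM1 by 1.82, VIM3 by 1.48, the RNA polymerase RDR2 by 1.37, VIM1 by 1.19, the maintenance methyltransferase MET1 by 0.88 and the Dicer DCL3 by 0.64 on the log2 scale. MET1 and DCL3 lost their calls without the mean-variance trend (adjusted p from limma of 0.0686 and 0.0873), and DCL3 also without cmt3 replicate 2 (0.0528). The study's title names genes of this kind, so the list is not independent evidence of their direction. Without it, 4 of 94 tested genes were higher and 1 was lower, with a median log2 change of -0.02. Both shares lie below the 6.15% and 2.32% of all genes tested.

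Regulators of FLC chromatin gave 2 of those 4. ATX1, a histone H3 methyltransferase that activates FLC, was the 1 gene called of 15 FLC activators (median log2 change 0.06). It had 1134 and 994 units in the libraries labelled tcx5/6;cmt3, against 544 and 548 in the cmt3 libraries, a log2 change of 0.96 ± 0.11 (adjusted p = 0.00343 by limma). CLF, the Polycomb methyltransferase that keeps FLC and FT repressed, was the 1 gene called of 10 vernalization and Polycomb genes (median -0.02). It had 1932 and 2002 in the libraries labelled tcx5/6;cmt3, against 1032 and 1154 in the cmt3 libraries, a log2 change of 0.85 ± 0.09 (adjusted p = 0.0029 by limma). An activator and a repressor of FLC were thus both higher where FLC was lower. VIN3, which cold induces to begin FLC silencing, had 2.62 and 0.609 units in the libraries labelled tcx5/6;cmt3, against 9.09 and 12.1 in the cmt3 libraries, and did not pass the test (log2 change -2.25, adjusted p = 0.141 by limma). None of the 8 genes of the autonomous pathway, which lowers FLC, was called (median 0.02), and the smallest p-values in it belonged to FVE (0.13) and FPA (-0.13).

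Repressors of FT gave the other 2. TEM1 and TEM2, RAV-type factors that repress FT directly, were the 2 genes called of 8 (median log2 change 0.03). TEM1 had 5294 and 5473 units in the libraries labelled tcx5/6;cmt3, against 3718 and 3167 in the cmt3 libraries, a log2 change of 0.65 ± 0.10 (adjusted p = 0.0111 by limma). TEM2 had 8991 and 8877 in the libraries labelled tcx5/6;cmt3, against 5015 and 4481 in the cmt3 libraries, a log2 change of 0.91 ± 0.09 (adjusted p = 0.00229 by limma). Both were higher while FT overlapped between the groups. The calls of ATX1, CLF, TEM1 and TEM2 were lost without the mean-variance trend (adjusted p from limma of 0.0572, 0.064, 0.125 and 0.0558) and without either library labelled tcx5/6;cmt3. With the filter applied anew, ATX1, CLF and TEM2 kept theirs without each library and TEM1 did not without either labelled tcx5/6;cmt3. None of 18 photoperiod and clock genes was called (median -0.02). CO, which activates FT in long days, had 64.3 and 55.9 in the libraries labelled tcx5/6;cmt3, against 45.9 and 58.0 in the cmt3 libraries, and the smallest p-values in that list belonged to TOC1 (-0.21) and ELF3 (-0.17). None of the 8 relatives and partners of FT was called either (median -0.25), with ATC (0.54) and FDP (-0.54) having the smallest p-values. ATC rested on single cmt3 libraries, with a log2 change of 1.06 without cmt3 replicate 2 (adjusted p = 0.0401 by limma) and 0.0142 without cmt3 replicate 1, and FDP ran from -0.82 to -0.26 without 1 library.

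Among 18 floral meristem genes and SOC1-like MADS-box genes, 14 were tested and 1 was called, with a median log2 change of -0.32. AGL14, a close relative of SOC1, had 41.1 and 31.6 units in the libraries labelled tcx5/6;cmt3, against 103 and 111 in the cmt3 libraries, a log2 change of -1.55 ± 0.31 (adjusted p = 0.0296 by limma). This was the 1 gene called lower in the 9 lists. The call was lost without the mean-variance trend (0.0522) and without any 1 library (0.0919 to 0.357, all adjusted p from limma). With the filter applied anew it was kept without cmt3 replicate 1 or 2 (0.00479 and 0.00702) but not without either library labelled tcx5/6;cmt3. LFY, CAL, SPL3 and SPL15 were too low to test, and 97.35% of the exonic bases of SPL3 and 100% of those of SPL15 lie in exons of another gene as well. Of 15 HD-ZIP IV relatives of FWA, 13 were tested and none was called (median 0.04), with the smallest p-values for HDG4 (2.80, adjusted p = 0.162 by limma, called without cmt3 replicate 2 with the filter applied anew) and HDG12 (0.41, adjusted p = 0.243 by limma). FWA and its relative HDG9 were at 0 in all 4 libraries.

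**Figure D5:**
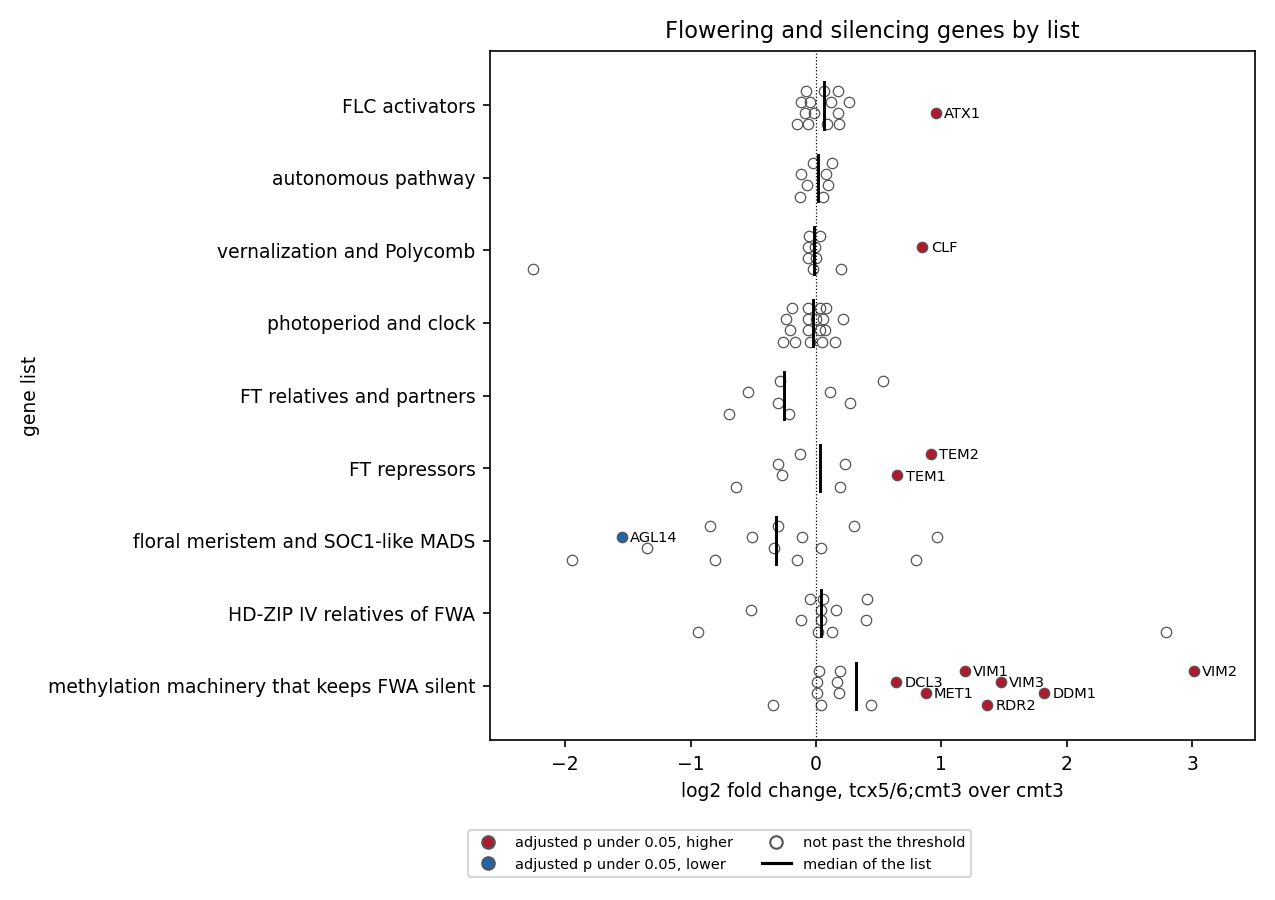
Log2 change (libraries labelled tcx5/6;cmt3 over cmt3) of every tested gene in the 9 lists, 1 line a list, with called genes filled and the median of each list as a bar. The medians run from -0.32 in the floral meristem and SOC1-like list to 0.32 in the methylation machinery list, against -0.02 for all genes tested.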

How the data were processed

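RNA from 2 libraries of each genotype was sequenced as mRNA libraries. Per the submitters' processing notes, the authors' tools were HISAT2 and edgeR (no versions) with the TAIR10 build. What was deposited is a normalized signal for each gene in each library, fractional and close in total. The sources used here do not state the scaling step, the gene counter, its strand setting or the annotation. With a tolerance of 0.1, at most 29.3% of low values were whole multiples of a library's most frequent value above 0, so reads were not recovered and no count test was run. The table has 4 other per-sample columns that match no sample and were not used. All 32548 identifiers matched the TAIR10.1 annotation, whose coordinates are 1-based.

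Genes reaching a value of 1 in at least 2 libraries were tested with limma 3.58.1 (R 4.3.3) on log2(value + 1) with a mean-variance trend, no covariate, and Benjamini-Hochberg adjustment over 23666 genes; values under 1e-10 were set to 0. An exact permutation test of 2 libraries against 2 cannot go below p = 0.333. The procedure was tested on simulated data. Sequences and exon overlaps were handled in Python 3.11.15 with Biopython 1.88. The 10 genes, the lists and the tests were chosen with earlier results of these data known. All 10 genes, their neighbours, the mutated genes and, per list, each called gene or else the 2 with the smallest p are named; VIN3, CO and the floral markers other than SEP3 were named after their values were seen and not recomputed in the alternatives. Alternatives covered normalization, filter, pseudocount, variance model, replicate block, threshold and single libraries.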

Additional observations from a re-analysis of the deposited data

How the results depend on the processing

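Of the whole table, 1456 genes were higher and 549 lower. No trend gave 586 and 135, an adjusted p under 0.01 gave 780 and 173, and a change of 2-fold or more gave 776 and 190. Quantile normalization gave 1450 and 724, and median centring gave 1349 and 743, with the median log2 change at -0.07 in place of -0.02. Leaving out 1 library gave 0 to 1281 higher and 0 to 530 lower; without replicate 1 or 2 labelled tcx5/6;cmt3 limma called 0 genes, with 2407 and 2490 at an unadjusted p under 0.05. With the low-value filter reapplied to the 3 remaining libraries, an alternative chosen after seeing the data, the counts were 2999 and 2184 without cmt3 replicate 1, 3068 and 2568 without cmt3 replicate 2, 757 and 212 without replicate 1 labelled tcx5/6;cmt3, and 720 and 217 without replicate 2. MAF5 was the 1 member called higher (0 to 1 without a library, either way). Of the 2 members called lower, 1 was left with a filter at 5, a pseudocount of 0.1 or a 2-fold limit, 0 without the trend or at 0.01, 0 without any 1 library, and 0 to 2 with the filter reapplied. Of the 9 lists, 11 genes were higher (5 without the trend, 5 at 2-fold, 0 to 11 without a library, 9 to 22 with the filter reapplied) and 1 lower (0 without the trend, 0 at 0.01, 0 to 1 without a library, 0 to 12 with the filter reapplied). The cause was not tested.

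The replicate numbers share only a number: same-numbered libraries deviated together with a correlation of 0.000633 over all tested genes (2 pairs). With the replicate block, 1314 genes were higher and 473 lower, 1 member was lower (FLC had an adjusted p of 0.0583 by limma) and 0 list genes were lower.

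Of 47 genes recomputed in every setting (the members, their neighbours, the mutated genes, SEP3 and the genes the list rule named), signs turned in 11, of which 0 were called. Median centring gave -0.0139 for SVP, -0.0359 for SOC1 and -0.027 for SLK1, and quantile normalization -0.0339 for SOC1. Without 1 library the log2 change was -0.13 to 0.12 for MAF3 (0.0622 without cmt3 replicate 1), -0.0877 to 0.16 for SVP, -0.74 to 0.17 for FT (0.12 without cmt3 replicate 1), -0.13 to 0.16 for SOC1 (-0.0432 without replicate 2 labelled tcx5/6;cmt3), -0.25 to 0.0344 for AT2G22530, -0.36 to 0.12 for NET2D, -0.0142 to 0.0606 for SLK1, -0.15 to 0.11 for AT4G25550, -0.11 to 0.50 for AT5G10130, -0.25 to 0.0248 for AT5G10150 and -0.14 to 0.67 for BST1. Depth is unknown, so no detection limit is given for FLC or FWA.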

Other observations

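Of the genes in the lists, 4 more that lay lower are named here after their values were seen. SNZ, an AP2-type repressor of flowering, had 443 and 532 units in the libraries labelled tcx5/6;cmt3, against 868 and 655 in the cmt3 libraries, with groups that did not overlap and a log2 change of -0.64 that did not pass the test (adjusted p = 0.0807 by limma). AGL19, a SOC1-like MADS-box gene, had 22.6 and 24.8 in the libraries labelled tcx5/6;cmt3, against 45.8 and 83.1 in the cmt3 libraries (log2 change -1.35, adjusted p = 0.126 by limma). AGL24, which acts with SOC1, had 109 and 72.4 in the libraries labelled tcx5/6;cmt3, against 164 and 148 in the cmt3 libraries (log2 change -0.80, adjusted p = 0.165 by limma). SPL4 had 43.6 and 39.5 in the libraries labelled tcx5/6;cmt3, against 74.1 and 76.5 in the cmt3 libraries (log2 change -0.84, adjusted p = 0.177 by limma). None of these 4 passed the test. The lists also hold genes that lay higher without passing it. NRPD1, of the methylation machinery list and also named after its values were seen, is an example. It had 484 and 480 units in the libraries labelled tcx5/6;cmt3, against 342 and 368 in the cmt3 libraries (log2 change 0.44, adjusted p = 0.0955 by limma).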
